A study of Cricetulus griseus with 16 samples.

Results

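The small heat shock protein genes Hspb1, Hspb8, Cryab, Hspb6, Hspb2 and Hspb11 were followed through mild and moderate heat in CHO cells, an established epithelial-like line from Chinese hamster ovary. They were found by gene name among the 20824 genes of the count matrix, and all 6 were listed. Of these, 5 had counts in every library and Hspb2 had none in any. RNA was sequenced in 16 libraries, 4 biological repeats lettered A to D in each of 4 groups of the wild-type line: untreated cells kept at 37 °C, cells heated to 40 °C either for 1 h or for 6 h, and cells heated for 1 h to 42.5 °C. All groups came from the same line (CCL-61) and carry no other treatment or genetic change by their labels, so that the values describe RNA of 1 cell line only.

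Small heat shock proteins are chaperones that share an alpha-crystallin domain. They work without ATP, assemble into oligomers of changing size, hold unfolding proteins in a state from which Hsp70 and its partners can refold them, and bind to the cytoskeleton. Heat shock factor 1 (HSF1) drives transcription of several of them through heat shock elements, while others are expressed mainly in muscle or lens. Hspb1 encodes the main heat-inducible member of rodent cells, named Hsp25, which the kinase MK2 phosphorylates downstream of p38. Hspb8 encodes the partner of BAG3 in chaperone-assisted autophagy, a route that carries damaged proteins to the lysosome. Cryab, Hspb6 and Hspb2 encode alphaB-crystallin, Hsp20 and a muscle protein. Hspb11 encodes IFT25, a subunit of the intraflagellar transport complex B of the cilium, and lacks the alpha-crystallin domain of the others.

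Libraries held 10504192 to 14668365 counts, and 3 counts in a library corresponded to 0.205 to 0.286 CPM (counts per 1000000 counts of the library), a limit set by counting error alone. Levels are given as CPM scaled by TMM (trimmed mean of M values, a correction for library composition). The study left out 1 control library, which its printed counts identify as 37 °C replicate D, and so did the main comparisons here. Across 10565 genes its log2 CPM correlated with the other control libraries at r of 0.974 to 0.976, against 0.995 to 0.996 among replicates A, B and C. Genes are not independent replicates in these correlations. Groups were compared by the quasi-likelihood test of edgeR, and DEG (differentially expressed gene) here means an adjusted p under 0.05 together with a change of 1.5-fold or more in either direction. Of 9 ovarian marker genes, Foxl2, Fshr, Lhcgr and Cyp19a1 had no count in any library, whereas Star, Inha and Amh had at least 10 counts in every library. Of 15 muscle markers 0 reached 10 counts in every library, and Myod1, Myog and Ckm had no count. Of 8 lens markers only Cryba1 reached 10 counts in every library, with 53 to 121.

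Hspb1 RNA rose in all 3 heated groups and Hspb8 RNA rose as a DEG at 42.5 °C only, where both were also higher than in either 40 °C group. Hspb6 and Hspb11 stayed under a fold change of 1.5 in all 6 comparisons. Cryab stood at 1 to 11 counts per library, too few for the filter on low counts, and 4 of the 6 genes could be tested. After 1 h at 40 °C 1 of the 4 was a DEG against 37 °C, where 0.334% of all tested genes were DEGs. After 6 h at 40 °C it was again 1 of 4, against 3.11% of all genes. After 1 h at 42.5 °C it was 2 of 4, against 7.51%. All of these DEGs were higher in the heated cells, and 0.276%, 1.45% and 2.83% of all tested genes were DEGs in that direction. By adjusted p alone 2, 2 and 4 of the 4 passed, where 1.64%, 29.4% and 43.1% of all tested genes did. The median log2 fold change of the 4 tested genes was 0.26, 0.42 and 0.91 in that order of groups, while the median over all genes was 0.00036, 0.0012 and -0.0017.

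**Figure D1:**
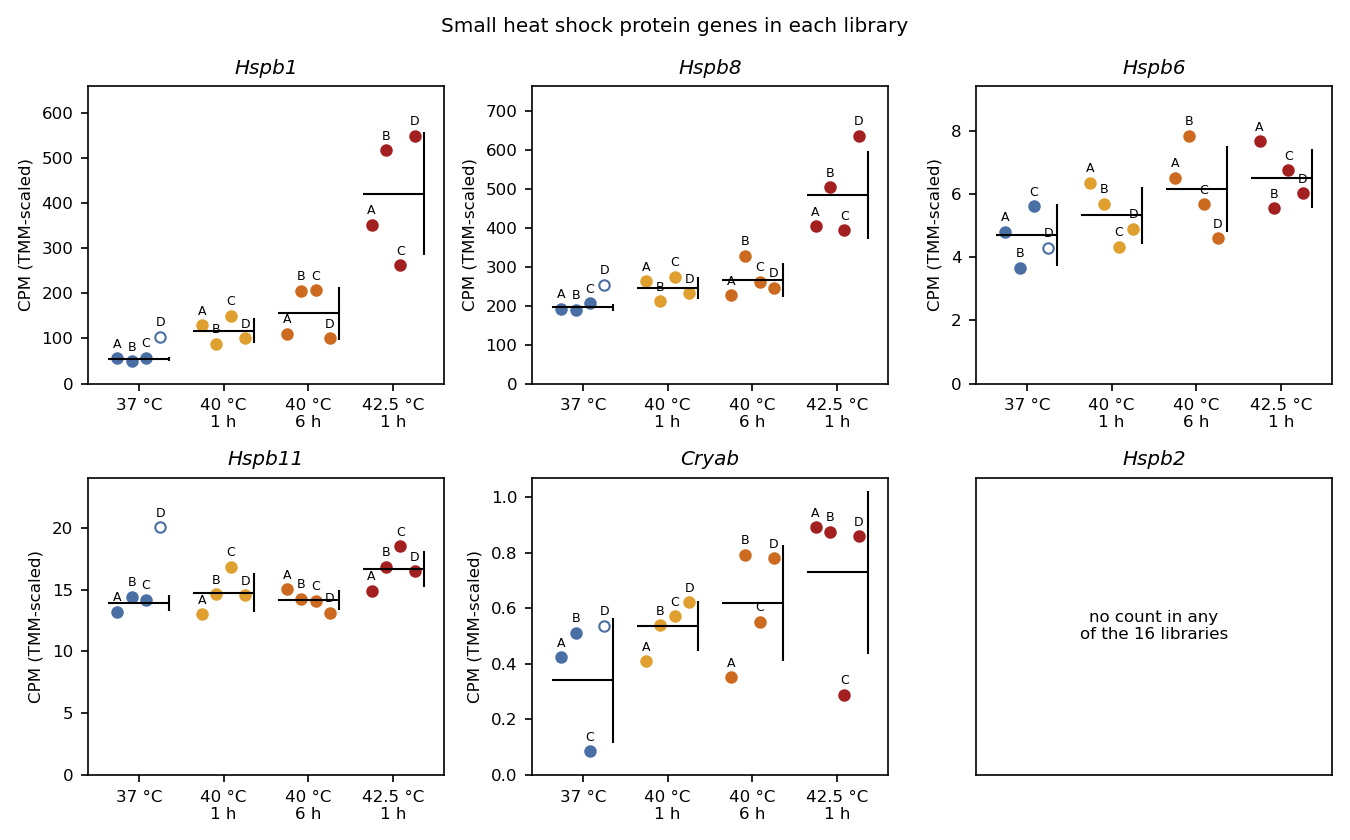
Level of each small heat shock protein gene (CPM, TMM-scaled, vertical axis, starting at 0) in every library of the 4 groups, lettered by replicate. The open point is 37 °C replicate D, horizontal lines are group means without it and vertical lines span 1 SD on each side. Hspb1 reached 263 to 551 CPM at 42.5 °C against 49.7 to 56.9 in 37 °C replicates A to C, and Hspb8 393 to 636 against 190 to 206.

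Hspb1 (ENSCGRG00001015556) stood at 55.8, 49.7 and 56.9 CPM in 37 °C replicates A, B and C, a mean of 54.1 ± 3.89 (SD, n = 3). After 1 h at 40 °C it was at 129, 88.2, 150.2 and 100.2 CPM in replicates A to D (117 ± 28.1, n = 4). After 6 h at 40 °C the 4 libraries were at 111, 206, 207 and 100.02 CPM (156 ± 58.5), and after 1 h at 42.5 °C at 353, 518, 263 and 551 CPM (421 ± 137). Each heated group lay above the 3 control libraries with no overlap, both 40 °C groups overlapped each other, and the 42.5 °C group lay above every other library. How large a share of all tested genes separates the groups in this way was not counted, here or for the genes below. The left-out 37 °C replicate D was at 104 CPM, which is 1.92 times the mean of replicates A to C and inside the range of both 40 °C groups.

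The log2 fold change of Hspb1 against 37 °C was 1.11 (SE 0.14, adjusted p = 0.000676) after 1 h at 40 °C, a fold of 2.17 with a 95% interval of 1.77 to 2.65. It ranked 10 among 10494 genes ordered by their rise. After 6 h it was 1.53 (SE 0.20, adjusted p = 3.85e-05), a fold of 2.89 (2.16 to 3.88), again rank 10 among 10499. At 42.5 °C it was 2.98 (SE 0.20, adjusted p = 2.95e-08), a fold of 7.87 (5.86 to 10.6), rank 17 among 10470. Hspb1 was thus among the genes that rose most in each treatment, although many more genes moved at 42.5 °C. With 37 °C replicate D among the controls, the value after 1 h at 40 °C was 0.82 (SE 0.24, adjusted p = 0.408) and no longer a DEG, in a comparison that then called 3 genes in all. After 6 h it was 1.24 (adjusted p = 0.0275) and at 42.5 °C 2.70 (adjusted p = 0.000318), both DEGs.

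Between heated groups, Hspb1 was higher at 42.5 °C than after 1 h at 40 °C by 1.86 in log2 units (SE 0.19, adjusted p = 3.42e-06), a fold of 3.64 (2.74 to 4.83). Against 6 h at 40 °C the difference was 1.44 (SE 0.22, adjusted p = 5.62e-05), a fold of 2.72 (1.96 to 3.76). These were 1 of the 2 small heat shock protein DEGs in each comparison, Hspb8 being the other, out of 4 tested, where 5.27% and 8.25% of all genes were DEGs (1.75% and 2.53% higher at 42.5 °C). By adjusted p alone 2 and 3 of the 4 passed, against 36.1% and 47% of all genes. From 1 h to 6 h at 40 °C the log2 difference was 0.42 (SE 0.20, 95% interval -0.0010 to 0.84, adjusted p = 0.155). The interval reaches from no change to a fold of 1.79, and 0 of the 4 tested genes were DEGs there, against 1.28% of all genes (0.556% higher after 6 h), or 18.5% by adjusted p alone. In the same edgeR fit 0 of the 4 had an unadjusted p under 0.05, Hspb1 coming nearest (unadjusted p = 0.0505 in the edgeR fit), and DESeq2 called 0. Other edgeR settings gave Hspb1 a smaller unadjusted value, 0.00297 with no filter on low counts (adjusted p = 0.0266) and 0.0302 when replicates were blocked by letter (adjusted p = 0.0998), and its fold stayed under 1.5 in both.

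Hspb8 (ENSCGRG00001015702) was at 192, 190 and 206 CPM in 37 °C replicates A, B and C (196 ± 8.89, n = 3). The libraries of 1 h at 40 °C had 262, 212, 274 and 232 CPM (245 ± 28.4, n = 4), and those of 6 h at 40 °C had 226, 329, 261 and 246 CPM (265 ± 44.5). At 42.5 °C the values were 404, 504, 393 and 636 CPM (484 ± 113). Every heated library lay above the 3 control libraries, the lowest after 1 h at 40 °C by a narrow margin, and the 42.5 °C libraries lay above all others. This describes the libraries only, as the share of all genes that do so was not counted. Replicate D at 37 °C had 254 CPM, 1.30 times the mean of replicates A to C, and so overlapped both 40 °C groups.

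The changes of Hspb8 at 40 °C passed the adjusted p but not the fold. Hspb8 stood higher than at 37 °C by 0.33 on the log2 scale after 1 h (SE 0.07, adjusted p = 0.0302), a fold of 1.25 (1.13 to 1.39), and by 0.44 after 6 h (SE 0.09, adjusted p = 0.00136), a fold of 1.36 (1.19 to 1.55). With replicate D these were 0.22 (adjusted p = 0.771) and 0.34 (adjusted p = 0.112). At 42.5 °C it was 1.32 (SE 0.12, adjusted p = 7.84e-07), a fold of 2.50 (2.09 to 2.99), rank 86 by rise, and with replicate D 1.23 (adjusted p = 0.000728). Hspb8 was a DEG at 42.5 °C with either set of controls. It was higher there than after 1 h at 40 °C by 1.00 (SE 0.12, adjusted p = 1.24e-05) and than after 6 h by 0.88 (SE 0.12, adjusted p = 2.39e-05). The 2 durations at 40 °C differed by 0.12 (95% interval -0.08 to 0.32, adjusted p = 0.401).

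**Figure D2:**
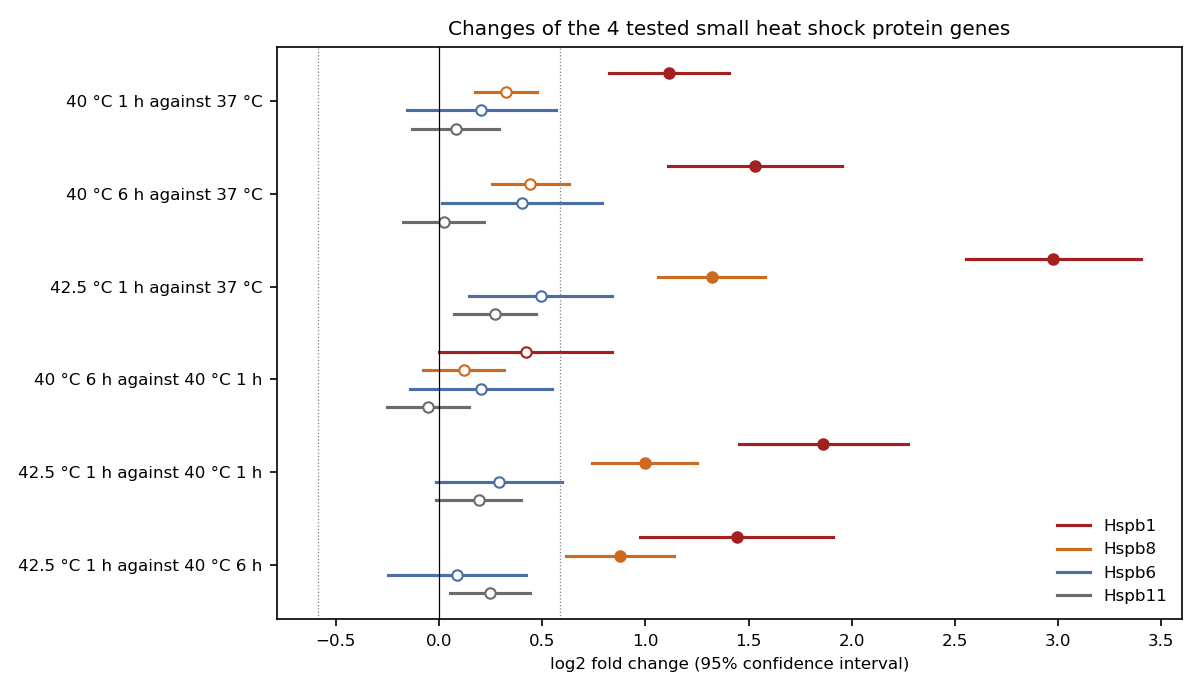
Log2 fold change with its 95% confidence interval (horizontal axis) of the 4 tested genes in the 6 comparisons between groups (vertical axis). Filled points are DEGs, open points are not, and dotted lines mark a fold change of 1.5. Hspb1 lies to the right of the other 3 genes in every comparison, from 0.42 to 2.98, and every Hspb6 and Hspb11 point is open.

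Since Hspb1 and Hspb8 were counted in the same libraries, the ratio of their counts shows how far the rise of one ran ahead of the other, independently of library scaling. The ratio of Hspb1 to Hspb8 counts was 0.291, 0.262 and 0.276 in 37 °C replicates A to C. It was 0.493, 0.417, 0.548 and 0.432 after 1 h at 40 °C, and 0.489, 0.626, 0.792 and 0.407 after 6 h. At 42.5 °C it reached 0.873, 1.03, 0.667 and 0.865. Every heated library had a higher ratio than the 3 controls, and the 42.5 °C group lay above the 1 h group at 40 °C but overlapped the 6 h group. Replicate D had 0.408, between the other controls and all but 1 of the heated libraries. A count depends on transcript length, so the ratio compares groups and says nothing of which RNA was more abundant.

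On the log2 scale the ratio averaged -1.86 ± 0.08 at 37 °C (n = 3), -1.09 ± 0.18 after 1 h at 40 °C, -0.84 ± 0.42 after 6 h and -0.24 ± 0.26 at 42.5 °C (n = 4 each). It was higher than at 37 °C by 0.77, 1.02 and 1.62 in that order, each with an exact two-sided permutation p of 0.0571, the smallest that 3 against 4 libraries can give. The 42.5 °C group exceeded the 1 h group at 40 °C by 0.85 (exact permutation p = 0.0286, the smallest that 4 against 4 can give) and the 6 h group by 0.60 (exact permutation p = 0.0571). The 6 h and 1 h groups at 40 °C differed by 0.26 (exact permutation p = 0.371). After Benjamini-Hochberg adjustment of these exact permutation tests over the 6 comparisons, 5 had p = 0.0686 and the other had p = 0.371, so that 0 passed 0.05. With groups of 3 and 4 libraries none of the 6 comparisons could have passed after this adjustment, whatever the ratios, so that the 0 decides nothing.

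**Figure D3:**
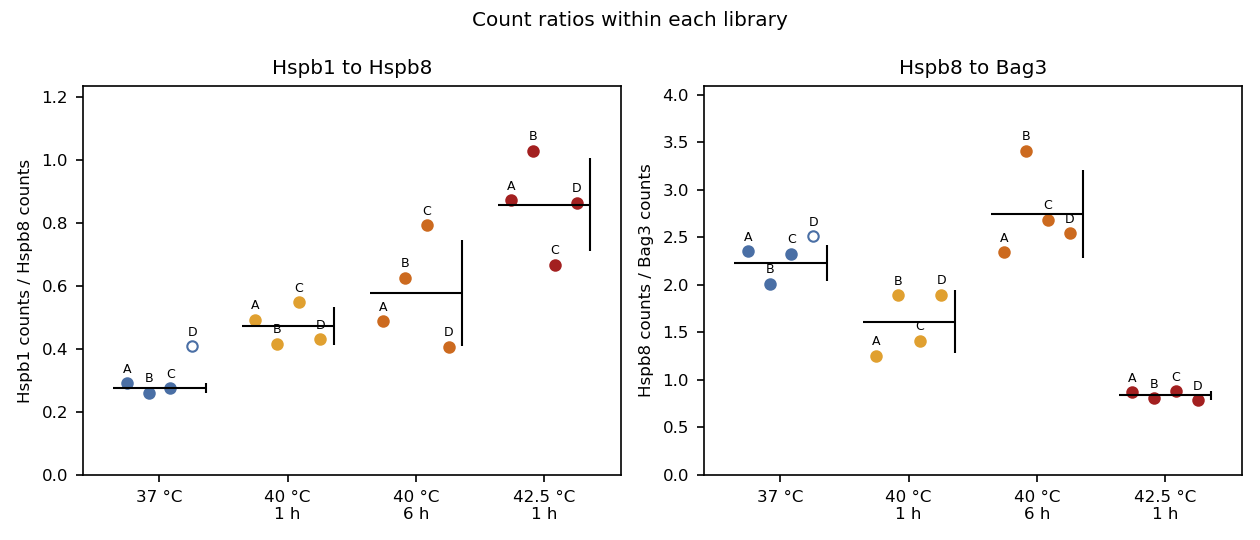
Ratio of Hspb1 to Hspb8 counts (left) and of Hspb8 to Bag3 counts (right) in every library of the 4 groups, lettered by replicate; vertical axes start at 0. Horizontal lines are group means and vertical lines span 1 SD on each side, both without 37 °C replicate D (open point). The left ratio climbs from at most 0.291 in controls A to C to at least 0.667 at 42.5 °C, while the right one is at 2.34 to 3.41 after 6 h at 40 °C and at 0.786 to 0.881 at 42.5 °C.

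Hspb6 (ENSCGRG00001014290) was counted 48 to 99 times per library. It was at 4.80, 3.66 and 5.62 CPM in 37 °C replicates A, B and C, at 6.36, 5.70, 4.33 and 4.90 after 1 h at 40 °C, at 6.52, 7.85, 5.68 and 4.61 after 6 h, and at 7.68, 5.55, 6.75 and 6.02 at 42.5 °C. Every heated group overlapped the controls. Its log2 fold change against 37 °C was 0.20 (95% interval -0.16 to 0.56, adjusted p = 0.625) after 1 h at 40 °C, 0.40 (0.02 to 0.79, adjusted p = 0.107) after 6 h and 0.49 (0.15 to 0.84, adjusted p = 0.0227) at 42.5 °C. The last value, a fold of 1.41, was not a DEG, and it became one without 37 °C replicate C (Hspb6 at 0.63, adjusted p = 0.0129). Its upper bound allows a fold of up to 1.79 at 42.5 °C, beside a lower bound of 5.86 for Hspb1.

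Hspb11 (ENSCGRG00001013033), the ciliary member, was flat at 40 °C. It was at 13.2, 14.4 and 14.2 CPM in 37 °C replicates A to C, at 13.0, 14.6, 16.8 and 14.5 after 1 h at 40 °C, at 15.1, 14.3, 14.1 and 13.1 after 6 h, and at 14.9, 16.8, 18.5 and 16.5 at 42.5 °C. The 42.5 °C libraries lay above controls A to C, but replicate D, at 20.1 CPM, lay above every other library. The log2 fold change against 37 °C was 0.08 (95% interval -0.13 to 0.29) after 1 h at 40 °C and 0.02 (-0.17 to 0.22) after 6 h, with adjusted p of 0.763 and 0.880. At 42.5 °C it was 0.27 (0.07 to 0.47, adjusted p = 0.0291), a fold of 1.21 and not a DEG, and with replicate D 0.14 (adjusted p = 0.501). Among its partners in the intraflagellar transport complex B, of 20 names 15 were found and 14 tested. Against 37 °C 0 were DEGs after 1 h at 40 °C, after 6 h at 40 °C or at 42.5 °C, with medians of -0.01, -0.05 and 0.09. Of all tested genes 0.334%, 3.11% and 7.51% were DEGs there, so that 0 of 14 is close to that share. Between 42.5 °C and 6 h at 40 °C 1 of the 14 was a DEG, lower at 42.5 °C, against 8.25% of all genes. Single genes of the complex ranged from -0.57 to 0.33 at 42.5 °C and from -0.22 to 0.39 after 6 h at 40 °C.

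Cryab (ENSCGRG00001014861) gave 6, 7, 1 and 6 counts in 37 °C replicates A to D, 6, 7, 7 and 8 after 1 h at 40 °C, 4, 10, 7 and 10 after 6 h, and 10, 9, 3 and 11 at 42.5 °C. Summed over the 4 libraries of a group these are 0.398 CPM of all counts at 37 °C (exact Poisson 95% interval 0.243 to 0.615), 0.535 (0.356 to 0.774), 0.633 (0.430 to 0.898) and 0.723 (0.497 to 1.01), intervals that cover counting error only. The intervals of 37 °C and 42.5 °C overlapped. With no filter on low counts edgeR gave a log2 fold change at 42.5 °C of 1.05 (SE 0.50, adjusted p = 0.103), and Cryab was a DEG in 0 of the 6 comparisons. Without 42.5 °C replicate C, the library with 3 counts, Cryab passed the filter and was a DEG there by edgeR (1.30, SE 0.44, adjusted p = 0.0303), and without 37 °C replicate C, the library with 1 count, it was at 0.66 (adjusted p = 0.279). The call thus hung on single libraries with 1 to 3 counts, and no change of Cryab could be settled at this depth. Hspb2 (ENSCGRG00001018827) had 0 counts among the 197163359 of all libraries, for which the upper end of the exact Poisson 95% interval is 0.0187 CPM. In the RefSeq annotation of another Chinese hamster assembly (CriGri-PICRH-1.0) Hspb2 and Cryab lie close together, with another entry between them. How reads from genes so close were assigned is not given in the sources used here.

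The other small heat shock proteins of mammals were near or at 0. Cryaa, the lens alpha-crystallin, had no count, Hspb3 and Hspb7 had 1 count each over all 16 libraries, Hspb9 had 11 and Odf1, an outer dense fibre protein of sperm, had 7. None of these 5 could be tested.

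Hspb1 and Hspb8 were set beside other genes that HSF1 regulates (25 names, 18 found and 16 tested, of which Bag3 is also in the autophagy list). Names not matched, and so not analysed here, included Hspa1a and Hspa1b, the inducible Hsp70 genes, and every rank within the list leaves them out. Of all tested genes, 0.276% were DEGs with higher values after 1 h at 40 °C, 1.45% after 6 h and 2.83% at 42.5 °C. Of the 16, 4 were DEGs after 1 h at 40 °C, 5 after 6 h and 9 at 42.5 °C, all higher, with medians of 0.27, 0.42 and 0.65. With all 4 control libraries 0, 5 and 8 of them were DEGs, and with edgeR's glmTreat, which tests against the 1.5-fold threshold itself, 0, 1 and 6. Among those after 1 h at 40 °C were Zfand2a, a proteasome-associated factor (log2 fold change 1.74), Dnajb1, an Hsp40 co-chaperone (1.63), Hsph1, the Hsp110 exchange factor of Hsp70 (1.08), and Bag3 (0.86). After 6 h they were Hsph1 (1.21), Serpinh1, a collagen chaperone (0.86), Stip1, the Hsp70 to Hsp90 adaptor (0.76), Dnaja1, another Hsp40 (0.74), and Dnajb1 (0.65). At 42.5 °C the largest among the 16 tested were Zfand2a (4.32), Dnajb1 (3.79), Hsph1 (2.96) and Bag3 (2.75). Hspb1, at 1.11, 1.53 and 2.98, lay among the tested HSF1-regulated DEGs in each group, and above all 16 tested genes after 6 h. Hsf1 itself had log2 fold changes of 0.04, 0.11 and -0.14 and was no DEG. Of the 4 heat shock factor genes Hsf1, Hsf2, Hsf4 and Hsf5, 3 could be tested at 40 °C and 2 at 42.5 °C, and 0 were DEGs against 37 °C. With Hsbp1 and Hsbp1l1 this list has 6 genes, of which 3 had at least 10 counts in every library. Between 42.5 °C and 6 h at 40 °C 4 of them could be tested and 1, Hsf4, was a DEG, lower at 42.5 °C (-1.835). Hsf4 did not pass the filter on low counts at 42.5 °C against 37 °C, so that this value rests on few counts.

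Between 1 h and 6 h at 40 °C the other HSF1-regulated genes did not all move one way. Over all 10439 genes tested between these groups 1.28% were DEGs, and 76 genes were DEGs with lower values at 6 h. Of the 16 genes 3 were DEGs between these groups, all lower at 6 h: Zfand2a by -1.90 (SE 0.26, adjusted p = 0.000193), Dnajb1 by -0.97 (SE 0.21, adjusted p = 0.00453) and Bag3 by -0.72 (SE 0.14, adjusted p = 0.00299). Serpinh1 (0.54, adjusted p = 0.00128) and Stip1 (0.49, adjusted p = 0.00159) had positive values that passed the adjusted p and not the fold. Hspb1, Hspb8, Hspb6 and Hspb11 were at 0.42, 0.12, 0.20 and -0.05 in the same comparison, none of them a DEG. Hsph1 was at 0.14 (adjusted p = 0.648). Without 40 °C 1 h replicate A, 2 of the 16 were lower and 1 higher at 6 h. Whether the change of Hspb1 or Hspb8 differs from that of Bag3 was not tested.

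Bag3 encodes the partner of the Hspb8 protein. Bag3 was at 81.4, 94.4 and 88.5 CPM in 37 °C replicates A to C and at 209, 112, 194 and 122 after 1 h at 40 °C. After 6 h it was at 96.5, 96.4, 97.3 and 96.6, a spread of 0.434 CPM (SD) in a group where Hspb1 ranged from 100 to 207 CPM, and at 42.5 °C it was at 463, 625, 446 and 809. Relative to 37 °C, Bag3 differed on the log2 scale by 0.86 (SE 0.17, adjusted p = 0.0157), 0.14 (SE 0.05, adjusted p = 0.0676) and 2.75 (SE 0.16, adjusted p = 1.01e-08), so that it was a DEG after 1 h at 40 °C and at 42.5 °C. The ratio of Hspb8 to Bag3 counts was 2.01 to 2.36 in the 3 control libraries, 1.25 to 1.90 after 1 h at 40 °C, 2.34 to 3.41 after 6 h and 0.786 to 0.881 at 42.5 °C. The pair was chosen for the partnership of its proteins with earlier results known, and no test was made of it. The 3 control libraries overlapped only the 6 h group. Of the other genes of BAG3-assisted autophagy (13 names, 11 found and tested, Bag3 among them) Flnc, a filamin of actin-rich structures and a client of the route, was a DEG after 6 h at 40 °C (-0.65, adjusted p = 0.00592) and at 42.5 °C (-0.58, adjusted p = 0.00892). The fold of Flnc at 42.5 °C, 0.667, lay at the threshold itself, so that this call is marginal. Vps18, a subunit of the tethering complex for lysosome fusion, was a DEG at 42.5 °C (-1.15, adjusted p = 6.24e-08). The medians of the 11 genes were 0.02, 0.09 and -0.01. Over the comparisons and alternative settings, the number of DEGs in this list stayed within 1.5 times its value in 76 cases and moved in 20.

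Lists of kinases upstream of Hsp25 and of cytoskeletal genes held no DEG among the genes that could be tested. Of 14 names of the p38 and MK2 route 13 were found and 8 tested, and 0 were DEGs in any of the 6 comparisons, with log2 fold changes against 37 °C between -0.29 and 0.28. Of 14 cytoskeletal genes, actins, tubulins, filamins and intermediate filaments, 10 were found and 7 tested. Of these 0 were DEGs in the 6 comparisons, with values against 37 °C between -0.36 and 0.10. The filamin gene Flnc is not in this list but in that of autophagy. Flnc was a DEG, lower after 6 h at 40 °C and at 42.5 °C than at 37 °C, with a fold at 42.5 °C that lay at the threshold itself. Over all tested genes 0.334% to 8.25% were DEGs in the 6 comparisons, so that 0 of so few genes is close to that share. Smaller changes did pass the adjusted p at 42.5 °C. Tubb4b was at -0.36 (adjusted p = 3.35e-06), Actb at -0.25 (adjusted p = 0.000574) and Prkd1 at 0.28 (adjusted p = 0.000821). After 6 h at 40 °C the 7 cytoskeletal genes ranged from -0.22 to -0.05. These lists describe RNA only, and phosphorylation of Hsp25 was not analysed here. Of 7 housekeeping genes 0 were DEGs in the 6 comparisons.

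Replicates of the heated groups varied far more in Hspb1 than in most genes. The SD of its log2 CPM within a group was 0.10 at 37 °C (replicates A to C), 0.35 after 1 h at 40 °C, 0.56 after 6 h and 0.50 at 42.5 °C. It was larger than that of 67.4% of 10627 genes at 37 °C and than that of 95.9%, 99.0% and 98.2% in the heated groups. Among the 500 genes nearest in level the share was 85.4% at 37 °C and 100%, 100% and 99.8% with heat. The narrow spread at 37 °C rests on leaving out replicate D. With it the SD of Hspb1 CPM was 37.6% of the mean at 37 °C, against 7.18% without it. In the heated groups it was 24.0%, 37.5% and 32.4% of the mean. For Hspb8 it was 14.3% at 37 °C with replicate D, and 11.6%, 16.8% and 23.3% in the heated groups. Hspb8 had SDs of 0.06, 0.17, 0.23 and 0.32, larger than 98.8%, 99.8% and 99.0% of the 500 genes nearest to it in level in the heated groups. Hspb11 had SDs of 0.07, 0.15, 0.08 and 0.13. These are descriptions across genes, without a test.

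The libraries that were high for Hspb1 were in part the same ones that were high for other heat shock genes. At 42.5 °C the order from high to low was D, B, A, C for Hspb1, Hspb8, Hsph1, Dnajb1 and Bag3 alike. Within the 1 h group at 40 °C replicates A and C exceeded D, and D exceeded B, for all 5 genes. Within the 6 h group they parted: Hspb1 was highest in C and B, Hspb8, Hsph1 and Dnajb1 were highest in B, and Bag3 lay within 96.4 to 97.3 CPM. Hspb6 and Hspb11 followed neither order. The mean log2 CPM of the 18 HSF1-regulated genes was 7.68, 8.01, 7.65 and 8.16 in 42.5 °C replicates A to D and 7.32, 6.90, 7.22 and 6.95 in those of 1 h at 40 °C, in the same order as Hspb1 at 42.5 °C and with A above C at 40 °C. Library 42.5 °C D also had the most counts of its group (13202441, against 10504192 to 11393750), and the part of depth in this order was not tested. In RNA of whole cultures, fewer responding cells and less RNA per cell cannot be told apart.

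**Figure D4:**
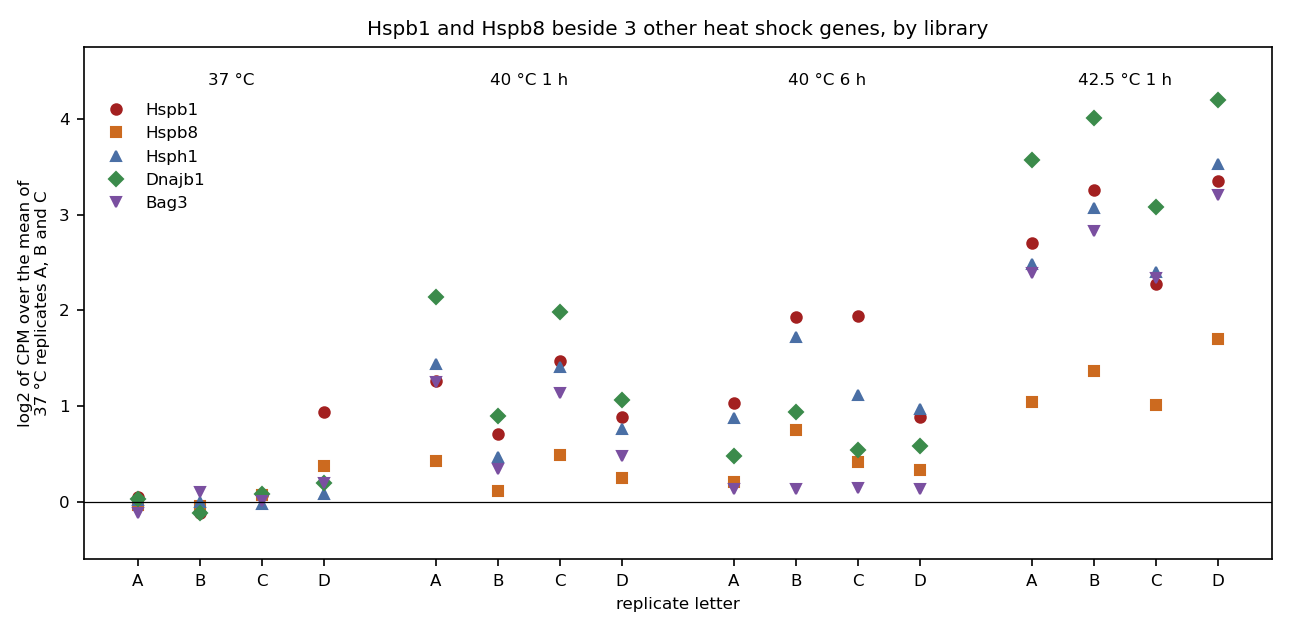
Log2 of CPM over the mean of 37 °C replicates A to C (vertical axis) for Hspb1, Hspb8, Hsph1, Dnajb1 and Bag3 in each library (horizontal axis, replicate letters within the 4 groups). All 5 genes share the order D, B, A, C at 42.5 °C, and after 6 h at 40 °C Hspb1 lies above Bag3 in each of the 4 libraries.

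Genes whose pattern over the 15 libraries was most like that of a member were found by the root mean square (RMS) difference of log2 CPM, each gene centred on its 37 °C mean, among 9449 genes with a name. Closest to Hspb1 were Hsph1 (RMS difference 0.26), Ctsk, which encodes the protease cathepsin K (0.53), and 1700102P08Rik (0.57). Hsph1 had log2 fold changes of 1.08, 1.21 and 2.96 against 37 °C. The ratio of Hspb1 to Hsph1 counts was 0.147 to 0.294 over the 15 libraries. Its highest value, 0.294, was in 40 °C 6 h replicate C, and 37 °C replicate D had 0.303. Ctsk was a DEG after 6 h at 40 °C (1.23) and at 42.5 °C (2.48). Closest to Hspb8 were Zfp715, a zinc finger protein gene (0.15), Fosl2, which encodes an AP-1 subunit (0.20), and Ptgs2, which encodes the prostaglandin synthase COX-2 (0.21). At 42.5 °C they had log2 fold changes of 1.14, 1.13 and 1.09, beside 1.32 for Hspb8. None of the 3 genes closest to Hspb8 is in the list of HSF1-regulated genes. With all 4 control libraries Zfp715 remained and Dusp16 and Xpnpep3 took the other 2 places. The measure takes in the size of the change from 37 °C, so that near fold changes follow from how these genes were chosen. The likeness describes these libraries and was not tested.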

How the data were processed

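Total RNA was taken from 16 cultures (4 groups of 4 biological repeats, grouped by the sample labels). The authors mapped paired reads to the Chinese hamster genome CHOK1GS_HDv1 with CLC Genomics Workbench and deposited raw read counts per gene, without normalization. The annotation release, strand setting and treatment of reads with several mapping places are not given in the sources used here, and could shift counts between overlapping or near-identical genes. No sequences of the members were at hand, and none are shown.

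Pairs of groups were tested in edgeR 4.0.16 under R 4.3.3 (quasi-likelihood test on the libraries of both groups, filterByExpr defaults, TMM, Benjamini-Hochberg over all genes tested). SE is the log2 fold change over the root of F, and intervals use its degrees of freedom. The study's 3 control libraries were used, identified from 920 genes whose counts the study prints: 15 libraries match in all 920 and 37 °C replicate D in 36. CPM are on 1 TMM scale over all 16 libraries. Ratios of counts were tested by exact permutation (SciPy 1.17.1). The edgeR fit was tested on simulated counts with known changes.

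All 6 members are named, and from each list at most 4 DEGs per comparison with 37 °C with the largest change, Bag3 and Hsf1, and the 3 genes most like each member called (prior count 2). List genes that were DEGs between heated groups only and other genes named to complete a count were chosen after their values were seen. The members and lists were chosen with earlier results of these data known. Alternatives changed the scaling (DESeq2 size factors), the test (DESeq2 1.42.0, or glmTreat at 1.5), the filter (none, or at least 10 counts in every library), the controls (all 4), the model (1 fit over all groups, or a block by replicate letter) and the call (adjusted p with no fold), and left out each library in turn. All count columns were used.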

Additional observations from a re-analysis of the deposited data

Results flagged for a closer look

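Within a group of 4, a library was picked out when its gap to the nearest other one took up more of the group's whole range than Dixon's 95% limit allows. Of 24 groups examined 2 were picked out, and chance gives about 1 in 20. In Hspb1 it was 37 °C replicate D at 103.8 CPM, whose gap was 0.867 of the range. In Cryab it was 42.5 °C replicate C at 0.289 CPM, which is 3 counts, with a gap of 0.945 of the range.

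The rise against 37 °C differed between heated groups for Hspb1 and Hspb8 by edgeR's test of the groups themselves. Hspb1 was higher at 42.5 °C than after 1 h at 40 °C by 1.86 on the log2 scale (adjusted p = 3.42e-06) and than after 6 h by 1.44 (adjusted p = 5.62e-05). Hspb8 was higher by 1.00 (adjusted p = 1.24e-05) and 0.88 (adjusted p = 2.39e-05).

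The control library that the comparisons left out, 37 °C replicate D, was above the highest of the other controls for 4 members. Hspb1 was at 103.8 CPM there, 1.82 times that library. Hspb8 was at 254 CPM (1.23 times), Hspb11 at 20.1 CPM (1.39 times) and Cryab at 0.538 CPM (1.05 times, 6 counts). Hspb6, at 4.30 CPM, lay within their range. The HSF1-regulated genes Hsph1 and Bag3 were at 342 and 101 CPM there, against at most 330 and 94.4 CPM in the other controls. The summed level of 7 housekeeping genes was also higher there, at 4554 CPM against 3451 to 3565 CPM, and the part of this shift in the members' values was not tested.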

How the results depend on the processing

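Alternative settings gave 150 values for the counts of DEGs among the members and for the Hspb1 to Hspb8 ratio. Of these, 144 kept their side of the threshold (for the ratio) or stayed within 1.5 times the count (for DEGs). The 144 were 90 counts of DEGs and 54 values of the ratio. With so few libraries the exact permutation test leaves the ratio little or no room to pass after adjustment. Its 54 values therefore decide nothing about how stable the ratio is. The number of small heat shock protein DEGs after 1 h at 40 °C was 1, and it was 0 with all 4 control libraries and 0 with glmTreat (Hspb1, adjusted p = 0.408 and 0.233). Adjusted p alone gave 2 there (Hspb1 and Hspb8), 2 after 6 h at 40 °C in place of 1, and 4 at 42.5 °C in place of 2, where 1.64%, 29.4% and 43.1% of all genes pass. Between 42.5 °C and 6 h at 40 °C glmTreat called 1 in place of 2 (Hspb8, adjusted p = 0.120), and adjusted p alone passed 3, with Hspb11. With single libraries left out the counts kept to 1, 1, 2 to 3, 0, 2 and 2 in the order of the comparisons. The 3 at 42.5 °C came with Hspb6 without 37 °C replicate C and with Cryab without 42.5 °C replicate C (1.30, adjusted p = 0.0303). Signs turned for values near 0 only. With all 4 controls Hspb11 was at -0.064 after 1 h at 40 °C and at -0.12 after 6 h, and with single libraries left out it ranged from -0.014 to 0.064 after 6 h and from -0.11 to 0.014 between 6 h and 1 h, and Hspb6 from -0.033 to 0.23 between 42.5 °C and 6 h at 40 °C. The cause was not tested. Over all genes, 35 DEGs after 1 h at 40 °C became 3 with all 4 controls, 2 with glmTreat, 56 without 40 °C 1 h replicate B and 23 without replicate C, 326 after 6 h became 218 with all 4 controls and 31 with glmTreat, and 786 at 42.5 °C became 262 with glmTreat.

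The replicate letters were checked as pairs. Same-letter libraries deviated together with r from -0.05 to 0.17. For 1 h at 40 °C against 37 °C, r was over 0.1 in 2 of 3 pairs. All 6 libraries of that comparison correlated best with their own letter, with a mean r of 0.134 within letters and -0.045 across them. In the other comparisons 0 to 2 pairs were over 0.1. Their mean r was 0.014 to 0.045 within letters and -0.015 to -0.0049 across them. Deviations from a group mean sum to 0. The mean r across letters therefore follows almost wholly from that within letters and adds no evidence of pairing. Whether a letter marks a shared batch was not tested. With the replicate block the number of DEGs among the members was 1, 1, 2, 0, 2 and 2 in the order of the comparisons, as without it, and 48, 333 and 717 genes in all were DEGs against 37 °C. The block gave Hspb1 1.16, 1.65 and 2.79 against 37 °C. For the Hspb1 to Hspb8 ratio the mean within-letter differences were 0.81, 1.18 and 1.61 against 37 °C (exact sign-flip p = 0.25, the smallest 3 pairs can give).

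A depth of 10504192 to 14668365 counts left a change of Cryab unsettled, and gave Hspb2 only an upper limit. Hspb6 rests on 48 to 99 counts per library.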
